A study of Mus musculus with 30 samples.

Results

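The 9 genes described here encode the immunoglobulin G receptors Fcgr1, Fcgr2b, Fcgr3 and Fcgr4, the adaptors Fcer1g and Tyrobp, and 3 further genes known best from myeloid cells, Cybb, Csf2rb and Clec4a3. They are 9 of the 19937 genes that a probe set with 1 gene symbol measured in the series, and each had a single such probe set. They were picked because several of them rose after drug exposure on these arrays, so their differences are given as a description, with the standard error (SE) and no p-value. How many of them passed the threshold of the fit over all genes is printed beside the share of all genes that did, and nothing is read from it. The series holds 30 Affymetrix Mouse Gene ST arrays of a B-cell lymphoma line and of lines derived from it, with expression on the log2 scale. A log2 difference of 1 is a doubling of signal.

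All cultures shared the genotype Eµ-Myc; Cdkn2a-/- on the C57BL/6J strain: an immunoglobulin enhancer drives Myc in cells of the B lineage, and the Cdkn2a locus, which encodes the p16INK4a and p19ARF proteins, is deleted. The line that had not been selected for resistance, called parental, was sampled before (0 h) and at 6, 12, 24 and 48 h after addition of 750 nM mafosfamide, an alkylating agent that releases the active form of cyclophosphamide in culture (n = 5, 4, 4, 5 and 5 arrays in order of time). The lines R100, R500, R1000 and R4000 came from successive steps of 1 dose escalation of the parental line, so they are not independent derivations, and each was measured on 1 untreated array. R500, R1000 and R4000 were also measured on 1 array each after 24 h of 750 nM mafosfamide, while R100 has no treated array here. Every culture grew over irradiated Cdkn2a-/- mouse embryonic fibroblasts, whose RNA can enter the extract. All cells stem from the lymphoma of 1 line, so the spread between arrays is not that of mice. The titles call the arrays biological replicates, and whether some of them share a culture is not given in the sources used here.

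Immunoglobulin G receptors bind the constant part of antibodies. The activating receptors Fcgr1, Fcgr3 and Fcgr4 pair with the adaptor Fcer1g, whose tyrosine motif (ITAM) recruits the kinase Syk, and in mice they are known from macrophages, monocytes, neutrophils and, for Fcgr3, natural killer cells. Fcgr2b carries an inhibitory motif (ITIM) and is the immunoglobulin G receptor that B cells normally carry, where it dampens signals of the antigen receptor. Tyrobp, also called DAP12, is an ITAM adaptor for other receptors of myeloid and natural killer cells, and Cybb is the catalytic subunit of the phagocyte oxidase, which B cells also express.

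In the RefSeq annotation of GRCm38.p6, Fcgr2b, Fcgr4 and Fcgr3 lie side by side on chromosome 1 with 0 protein-coding genes between neighbours, and 7 such genes lie between Fcgr3 and Fcer1g. Promoter sequences of RefSeq on this build, which is not the mm9 build named for the arrays, were found for 7 of the 9 genes (9 windows, since Fcgr3 and Clec4a3 have several listed starts). The 100 bases before the start were searched on both strands for GAGGAAG, a form of the site bound by the ETS factor PU.1 (gene Spi1), which reads CTTCCTC on the other strand. It was present in 4 of the 9 windows, those of Fcgr4, Fcgr1 and Fcgr3, whose overlapping windows share 1 site, while 4.72% of all 32851 promoter windows held it. Windows of these genes are shown, with those of Fcer1g and Cybb as examples without this match. Whether the letters bear on the values of the genes on the arrays was not tested. Capitals mark the motif.
Fcgr4, chr1:171018826-171018925, plus strand: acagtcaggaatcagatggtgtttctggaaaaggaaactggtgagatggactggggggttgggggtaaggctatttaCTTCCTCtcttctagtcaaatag
Fcgr3, chr1:171059395-171059494, minus strand: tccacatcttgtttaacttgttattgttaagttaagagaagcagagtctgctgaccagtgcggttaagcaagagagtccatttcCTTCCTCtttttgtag
Fcgr1, chr3:96293970-96294069, minus strand: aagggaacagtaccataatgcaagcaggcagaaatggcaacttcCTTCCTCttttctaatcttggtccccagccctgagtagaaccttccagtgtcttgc
Fcer1g, chr1:171234350-171234449, minus strand: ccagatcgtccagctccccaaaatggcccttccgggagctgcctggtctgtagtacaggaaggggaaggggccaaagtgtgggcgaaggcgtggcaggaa
Cybb, chrX:9469325-9469424, minus strand: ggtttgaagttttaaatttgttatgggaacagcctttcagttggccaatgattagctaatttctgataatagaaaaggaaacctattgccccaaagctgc
The motif spanned bases 23 to 17 before the start in Fcgr4, 16 to 10 in the Fcgr3 window shown and 56 to 50 in Fcgr1. A match of letters is not a bound site. The absence of these letters says nothing about other forms of the site in the same window, which were not searched, or about binding elsewhere.

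The arrays as a whole were even in level, with medians between 7.28 and 7.44 over the 34760 probe sets, apart from the fifth 0 h array, whose interquartile range of 3.07 was the narrowest against 3.34 to 3.64 on the others. Between 0 and 24 h, 867 genes rose and 484 fell in parental cells at an adjusted p below 0.05 (limma, Benjamini-Hochberg), while in the resistant lines 5 rose and 1 fell. The mean of 11 measured B-lineage markers lay between 10.95 and 11.55 on the parental arrays. The means of 16 macrophage, 12 granulocyte and 11 T and natural killer cell markers were 6.68 to 7.23, 5.98 to 6.44 and 5.94 to 6.33 on the same arrays. These arrays carry no detection call, so no marker can be said to be absent.

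**Figure D1:**
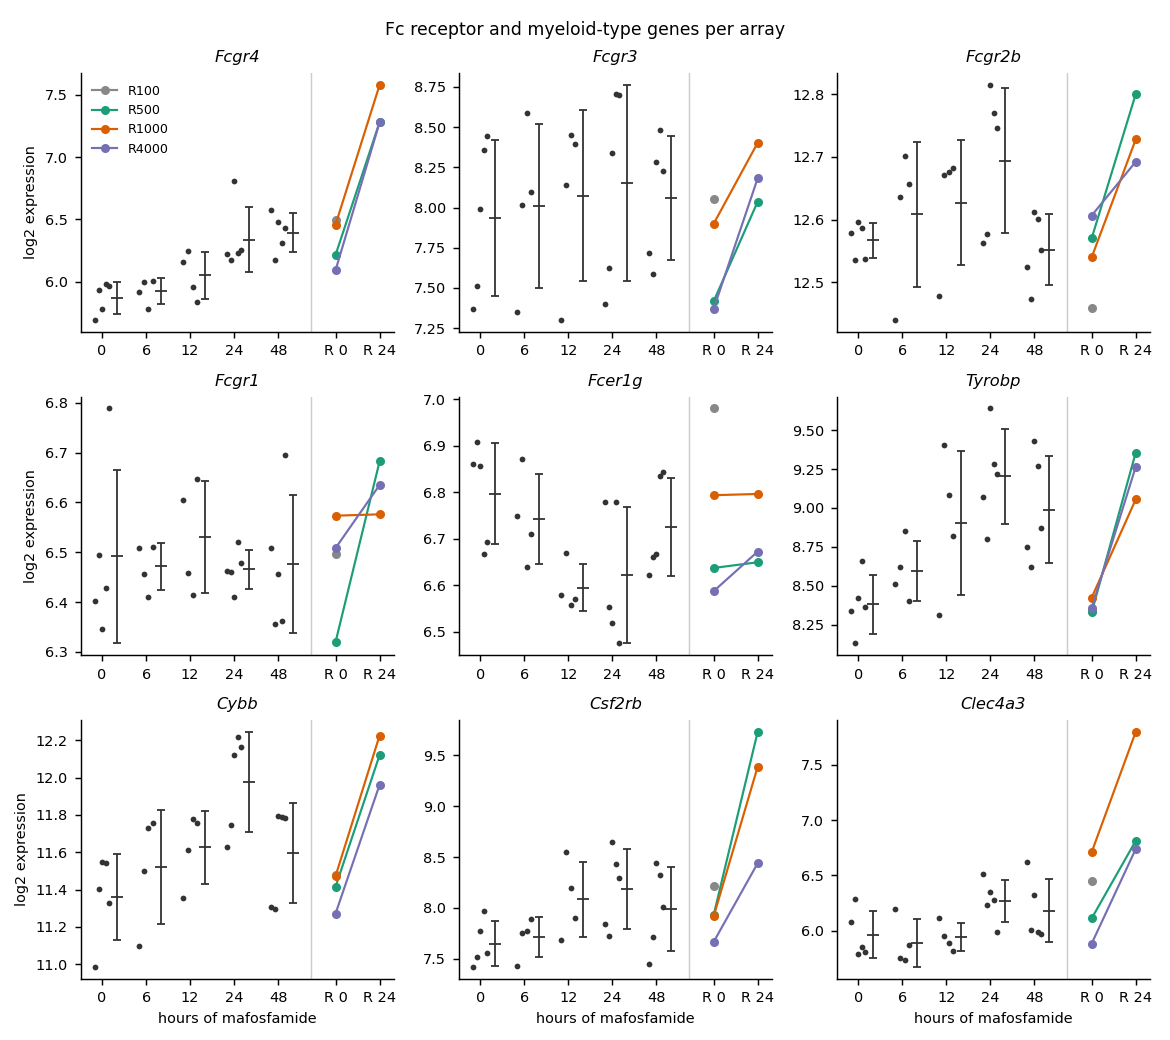
Expression of the 9 genes on each of the 30 arrays (vertical axis, log2 expression, a separate scale for each gene). Black points are parental arrays at 0 to 48 h of 750 nM mafosfamide, with the mean and SD of each time to their right, and coloured points are the resistant lines untreated (R 0) and after 24 h (R 24), 1 array each, joined within a line. Fcgr4, Csf2rb and Clec4a3 reached their highest values in treated resistant lines, whereas Fcgr1 and Fcer1g kept to a narrow range.

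Fcgr4, an activating receptor of intermediate affinity, was higher at 24 and 48 h in parental cells and higher still in treated resistant lines. The 0 h arrays of Fcgr4 measured 5.70, 5.94, 5.78, 5.98 and 5.97, and its 24 h arrays 6.22, 6.18, 6.80, 6.23 and 6.26. At 48 h they measured 6.58, 6.17, 6.48, 6.31 and 6.43. The lowest array at 24 h and at 48 h was thus above the highest at 0 h, whereas the arrays at 6 h (5.78 to 6.00) and at 12 h (5.84 to 6.25) overlapped those at 0 h. The difference from 0 h was 0.47 ± 0.11 (SE) at 24 h, a 1.38-fold change, and 0.52 ± 0.11 at 48 h. Without the 24 h array at 6.80, Fcgr4 was still among the genes called.

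In the untreated resistant lines Fcgr4 measured 6.50 in R100, 6.22 in R500, 6.46 in R1000 and 6.09 in R4000. Each line was above every parental 0 h array, and the mean difference was 0.45 ± 0.11, but the order of the lines did not follow the order of selection. After 24 h of drug the values were 7.28 in R500, 7.58 in R1000 and 7.28 in R4000. These 3 arrays were the highest Fcgr4 values of the series. The increase was 2.09-fold, 2.17-fold and 2.27-fold in that order, a mean difference of 1.12 ± 0.14. It was larger than the parental response by 0.65 ± 0.18, or by 0.33 with the mean of fibroblast markers as a covariate. At the same dose and time the treated lines lay on average 1.04 above the parental 24 h mean of 6.34.

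Fcgr3, the low-affinity activating receptor, behaved differently: its values were split by the number in the array description more than by time. The submitters' descriptions number the parental arrays 1 to 5 at 0, 24 and 48 h and 2 to 5 at 6 and 12 h. In that order the values were 7.37, 7.51, 7.99, 8.36 and 8.44 at 0 h and 7.40, 7.63, 8.34, 8.70 and 8.70 at 24 h. The arrays numbered 1 and 2 lay between 7.30 and 7.72 at all times (n = 8) and those numbered 3 to 5 between 7.99 and 8.70 (n = 15), so the 2 sets did not overlap. This split was noticed in the values and is not a group of the study, and what the number stands for is not given in the sources used here. Because of it the mean difference at 24 h, 0.22 ± 0.29, was smaller than its error, while the array at 24 h was higher than the 0 h array of the same number in 5 of 5 numbers, by 0.03 to 0.35.

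In the resistant lines, whose arrays all carry the number 1, Fcgr3 measured 8.05 in R100, 7.42 in R500, 7.90 in R1000 and 7.37 in R4000 without drug. R100 and R1000 were therefore the higher lines and R500 and R4000 the lower, as for Fcgr4. Against the mean of all 0 h arrays the lines differed by -0.25 ± 0.24. Against the 0 h array numbered 1 each line was higher, by 0.00 to 0.68, so the direction of this difference depended on the arrays chosen. After 24 h the values were 8.04 in R500, 8.40 in R1000 and 8.18 in R4000, all above the untreated arrays of the same 3 lines. The differences were 0.62, 0.50 and 0.81.

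**Figure D2:**
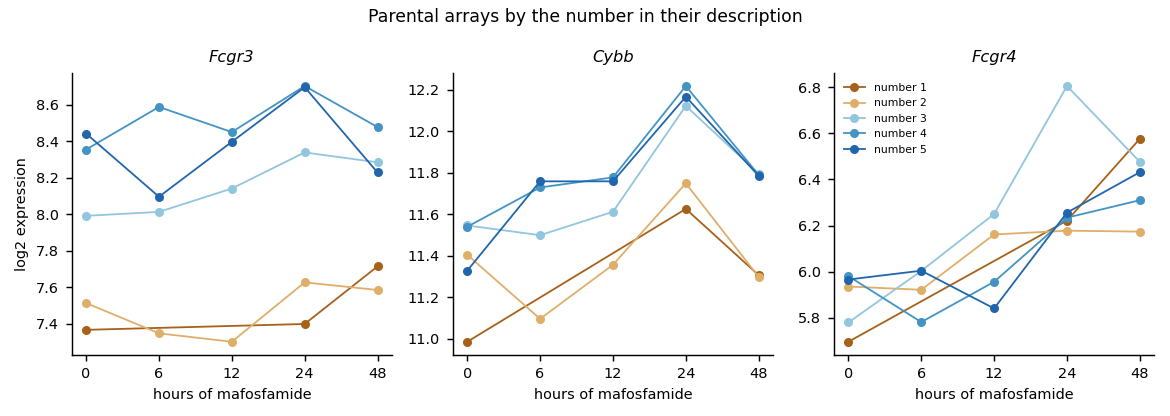
Log2 expression (vertical axis) of Fcgr3, Cybb and Fcgr4 on the parental arrays against hours of mafosfamide (horizontal axis, evenly spaced), joined by the number in the submitters' description. For Fcgr3 the arrays numbered 1 and 2 stayed at 7.30 to 7.72 and those numbered 3 to 5 at 7.99 to 8.70, whereas Fcgr4 showed no such split and was higher at 24 and 48 h than at 0 h in each number.

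Fcgr2b, the inhibitory receptor of B cells, was near the top of the scale on all arrays and moved little. Its parental values ranged from 12.44 to 12.81, and the 12 conditions differed by 0.34 in log2 mean between the lowest (untreated R100) and the highest (treated R500). The 24 h difference was 0.13 ± 0.06 in parental cells. The 3 resistant lines with a treated array differed by 0.23 (R500), 0.19 (R1000) and 0.09 (R4000). Treated and untreated arrays of these lines did not overlap, at 12.69 to 12.80 against 12.54 to 12.61. Signals near the upper end of the scale can be compressed, which limits how large a difference can appear there.

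Fcgr1, the high-affinity receptor, stayed low on the scale. Parental arrays ranged from 6.35 to 6.79 and the 24 h difference was -0.03 ± 0.08. Treated resistant lines measured 6.68, 6.58 and 6.63 in R500, R1000 and R4000 against 6.32, 6.57 and 6.51 without drug. Treated and untreated arrays were separated only narrowly, since the lowest treated and the highest untreated array were both of R1000. At 24 h in parental cells Fcgr1 was thus nearly level, while Fcgr4 differed by 0.47 ± 0.11. The part of the letters shared by their promoter windows in these values was not tested.

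Fcer1g, the adaptor that the activating receptors need to reach the surface, was also low on the scale and was no higher with drug in parental cells. The 0 h arrays measured 6.86, 6.91, 6.86, 6.67 and 6.69 and the 24 h arrays 6.78, 6.55, 6.52, 6.78 and 6.48. These ranges overlapped, with a difference of -0.18 ± 0.07. In the resistant lines drug shifted it by 0.01 (R500), 0.00 (R1000) and 0.09 (R4000). The level of the adaptor therefore did not follow that of Fcgr4 or Fcgr3 across the 30 arrays (Pearson r = -0.05 and -0.12). Values this low on the scale are compressed by the background correction, and a small change there may not be visible.

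Tyrobp had the largest difference from 0 h of the 9 genes at each parental time. It measured 8.34, 8.13, 8.42, 8.66 and 8.36 at 0 h. By 12 h 3 of 4 arrays, at 8.31, 9.40, 9.08 and 8.82, had passed the highest 0 h array. At 24 h the values were 9.07, 8.80, 9.64, 9.28 and 9.22, with no overlap with 0 h, and the difference was 0.82 ± 0.18, a 1.77-fold change. At 48 h the arrays (8.62 to 9.43) again overlapped those at 0 h, with a difference of 0.61 ± 0.18. Arrays of the same number were higher than at 0 h in 4 of 4 numbers at 6 h and at 12 h and in 5 of 5 at 24 h and at 48 h.

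Untreated resistant lines did not stand apart from parental cells in Tyrobp, at 8.35 in R100, 8.33 in R500, 8.42 in R1000 and 8.36 in R4000. With drug they measured 9.36 in R500, 9.05 in R1000 and 9.26 in R4000. The differences of 1.03, 0.63 and 0.91 gave a mean of 0.86 ± 0.18. The resistant response was larger than the parental response by 0.03 ± 0.22.

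Cybb, the catalytic subunit of the phagocyte oxidase, was higher by similar amounts in parental and resistant cells, with 0.10 ± 0.21 between the responses. At 0 h it measured 10.99, 11.40, 11.55, 11.54 and 11.33, and at 24 h 11.63, 11.75, 12.12, 12.22 and 12.17. The groups did not overlap, and the difference was 0.62 ± 0.15, a 1.53-fold change. At 48 h the values lay between 11.30 and 11.80 and overlapped those at 0 h, with a difference of 0.23 ± 0.15. Like Fcgr3, Cybb was lower in the arrays numbered 1 and 2 than in those numbered 3 to 5 at 24 h and at 48 h. The resistant lines measured 11.41, 11.47 and 11.27 in R500, R1000 and R4000 without drug and 12.12, 12.23 and 11.96 with it. The differences of 0.71, 0.75 and 0.69 were the most even among the 6 genes that were higher by over 0.5 in every line.

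Csf2rb, the common beta chain of the receptors for GM-CSF and related interleukins, had the widest range of the 9 genes. Its group mean ran from 7.65 in parental cells at 0 h to 9.73 in treated R500, a span of 2.08. In parental cells the arrays measured 7.42, 7.52, 7.78, 7.97 and 7.55 at 0 h and 7.85, 7.72, 8.65, 8.43 and 8.29 at 24 h. These overlapped, with a difference of 0.54 ± 0.20. The resistant lines went from 7.93 to 9.73 in R500, from 7.92 to 9.39 in R1000 and from 7.66 to 8.44 in R4000. The ratio was 3.49-fold, 2.77-fold and 1.71-fold in that order, so it was smaller in each line of a later selection step, with 1 array for each value. Treated R500 and R1000 were above every parental array, while treated R4000 lay within the parental 24 h range of 7.72 to 8.65. Csf2rb2, a near-identical neighbour of Csf2rb on chromosome 15, differed by 0.03 ± 0.13 at 24 h in parental cells (adjusted p = 0.891, limma) and by 0.16 ± 0.16 in resistant lines (adjusted p = 1.00, limma).

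Clec4a3, a lectin receptor of the DCIR family, was low on the scale in parental cells and highest in R1000. Parental arrays measured 6.08, 6.29, 5.79, 5.86 and 5.81 at 0 h and 6.51, 6.23, 6.35, 6.28 and 5.99 at 24 h. The groups overlapped, with a difference of 0.31 ± 0.13. Untreated lines measured 6.45 in R100, 6.11 in R500, 6.71 in R1000 and 5.88 in R4000, which again put R100 and R1000 above the other lines. With drug the values were 6.81 in R500, 7.80 in R1000 and 6.74 in R4000, all above every parental array. The treated R1000 array was 1.53 above the parental 24 h mean, against 0.54 and 0.47 for R500 and R4000.

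**Figure D3:**
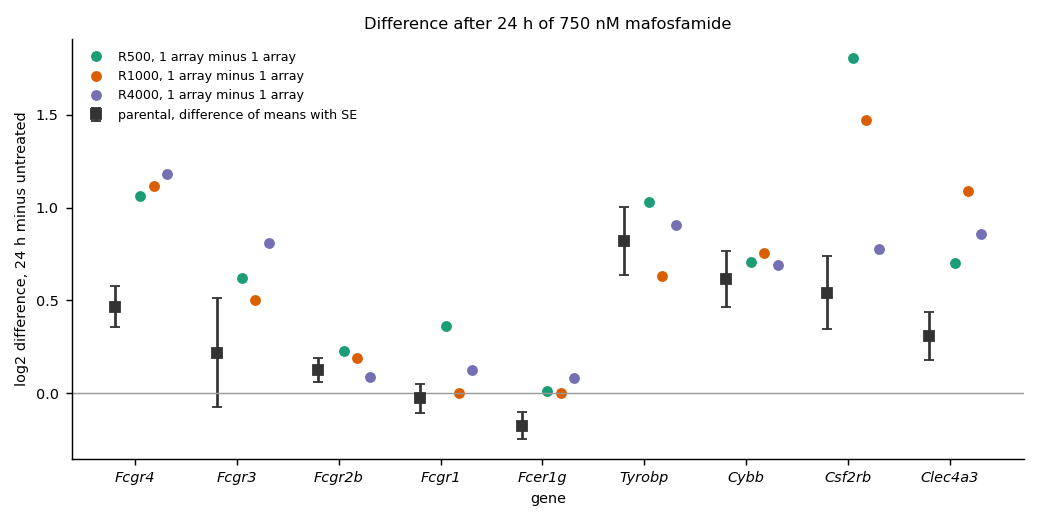
Log2 difference between 24 h of 750 nM mafosfamide and no drug (vertical axis) for each gene (horizontal axis). Squares are parental differences of group means with their SE (n = 5 and 5), and circles are single resistant lines, 1 array minus 1 array. The 3 circles lay above the parental square for every gene except Tyrobp and Fcgr2b. The resistant response was larger by 0.81 for Csf2rb, 0.65 for Fcgr4 and 0.58 for Clec4a3, but by only 0.10 for Cybb and 0.03 for Tyrobp.

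Seen together over time in parental cells, the 9 genes had a median log2 difference from 0 h of 0.06 at 6 h, 0.14 at 12 h, 0.31 at 24 h and 0.22 at 48 h, beside medians of all genes between -0.04 and -0.01. At 24 h 7 of 9 were above 0 h and 3 of 9 (Fcgr4, Tyrobp and Cybb) were called higher, where 4.35% of all genes were called higher and 2.43% lower. Without the fourth 24 h array Cybb was no longer called, and without the fourth 0 h array Csf2rb was called too, where 2678 of all genes were. At 48 h Fcgr4 alone was called, beside 0.11% of all genes called higher and 0.14% lower, and it was lost in 7 of the 10 fits that left out 1 array. No gene of the 9 was called at 6 h or 12 h, where 0.01% and 0.466% of all genes were called higher and 0.01% and 0.0451% lower. None was called lower at any time. Groups did not overlap, with the later arrays higher, for 3 of 9 genes at 24 h (1.98% of all genes) and 1 of 9 at 48 h (0.672%), and for 0 of 9 at 6 h (0.657%) and at 12 h (1.71%). These counts describe genes that were chosen from the same contrasts.

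Without drug the resistant lines differed little from the mean of all parental 0 h arrays in most of these genes. This depended on the arrays chosen. Against the single 0 h array numbered 1, all 4 lines were higher for Fcgr4 (by 0.40 to 0.80), Csf2rb (0.24 to 0.80), Cybb (0.29 to 0.49) and Fcgr3 (0.00 to 0.68). The lines differed in sign for Fcgr2b, Fcgr1, Fcer1g, Tyrobp and Clec4a3. Against the mean of all 0 h arrays the median difference was -0.02 and 4 of 9 genes were above parental cells. Of the 9, 0 were called, where 0.0201% of all genes were called higher and 0.0552% lower (limma). Only Fcgr4 had all 4 lines above all 0 h arrays, a pattern held by 2.32% of all genes.

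With drug the contrast within the resistant lines was wider. All 9 genes were higher in all 3 lines, as were 14.5% of all genes, and 6 of 9 (Fcgr4, Fcgr3, Tyrobp, Cybb, Csf2rb and Clec4a3) were higher by over 0.5 in each line, as were 0.226% of all genes. Treated and untreated arrays did not overlap for 8 of 9 genes, the exception being Fcer1g, beside 6.92% of all genes. The median difference was 0.72 against -0.02 over all genes. Fcgr4 was the only one of the 9 called (0.0251% of all genes were called higher and 0.00502% lower), and it was not called in any of the 6 fits that left out 1 array. Each line contributed 1 pair of arrays, so leaving out either array of a line took that line out of this difference and gave the same value. The spread in this fit was pooled with that of the parental arrays.

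The response was larger in resistant than in parental cells by 0.21 in the median of the 9 genes and was larger for each of them, beside a median of 0.02 over all genes. The difference was 0.81 ± 0.30 for Csf2rb, 0.65 ± 0.18 for Fcgr4, 0.58 ± 0.19 for Clec4a3 and 0.43 ± 0.44 for Fcgr3. With the mean of fibroblast markers as a covariate the difference in response was below 0 for 4 of the 9 genes (Tyrobp -0.29, Cybb -0.19, Fcgr2b -0.11 and Fcgr3 -0.05), was 0.42 for Csf2rb, 0.33 for Fcgr4 and 0.63 for Clec4a3, and had a median of 0.25. The difference in response was not called for any gene of the array (0% by limma, with 1562 genes at an unadjusted p below 0.05). Without the parental 24 h array numbered 3, the one with the high Fcgr4 value, 128 genes including Fcgr4 were called. Treated resistant lines did not overlap parental 24 h arrays for Fcgr4, Clec4a3 and Fcgr1, the first 2 by folds of 2.05 and 1.80 in the means and Fcgr1 by 1.12, a pattern held by 5.04% of all genes. The comparison of responses and the comparison with 0 h use the same parental arrays.

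Across the 30 arrays several of the 9 genes varied together, while Fcgr1 and Fcer1g did not go closely with any other. Pearson's r was 0.84 for Fcgr4 with Clec4a3, 0.82 for Fcgr2b with Cybb, 0.79 for Fcgr4 and for Cybb with Csf2rb, and 0.77 for Tyrobp with Cybb. Cybb and Fcgr3 had r = 0.72, and Tyrobp had r = 0.70 with Csf2rb and with Fcgr2b. The arrays share drug exposure, so r was also taken on the 23 parental arrays after subtraction of each time's mean. There Fcgr3 went with Cybb (r = 0.87) and with Fcgr2b (r = 0.82), and Tyrobp with Csf2rb (r = 0.86), while Fcgr4 with Clec4a3 fell to 0.33 and Clec4a3 ran against Fcgr3 (r = -0.64). These are descriptions over arrays that may share cultures and feeder content. Fcgr2b, Fcgr3 and Fcgr4 are close relatives, and whether their probes take up each other's transcripts cannot be told from the values. Fcgr4 and Fcgr3 had r = 0.19 over the 30 arrays.

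**Figure D4:**
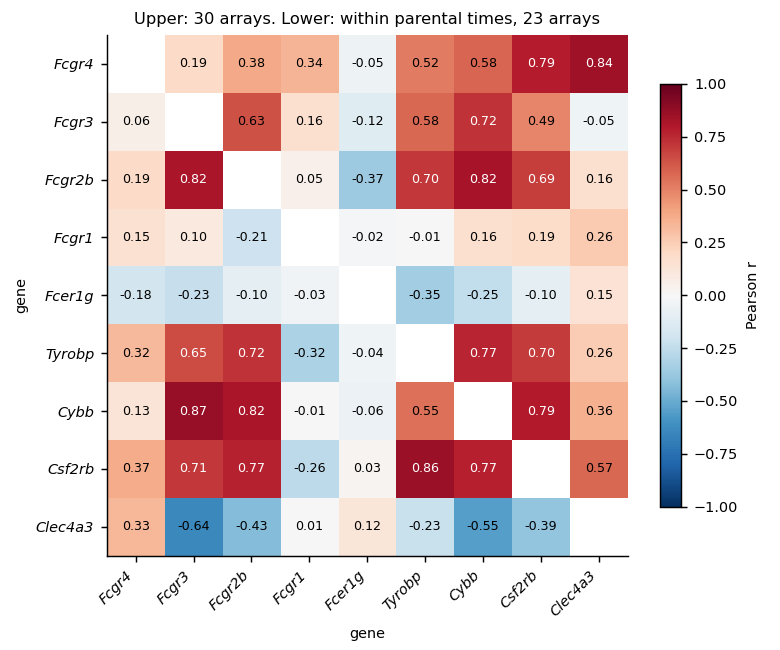
Pearson's r between the 9 genes (both axes), from -1 in blue to 1 in red. Cells above the diagonal use all 30 arrays, and cells below use the 23 parental arrays after subtraction of the mean of each time. Fcgr4 with Clec4a3 was 0.84 above and 0.33 below the diagonal, and Fcgr3 with Cybb 0.72 and 0.87.

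The genes most like each member over the 30 arrays, with predicted gene models passed over, differed between members. For Fcgr3 they were Mrc1, the mannose receptor of macrophages (r = 0.89), Gmfg (r = 0.89) and Cd244a, a receptor of natural killer and other immune cells (r = 0.89). For Cybb they were St14, Serpinf1 and Ncf1 (r = 0.90, 0.90 and 0.89), of which Ncf1 encodes the p47phox subunit that works with Cybb in the oxidase. For Tyrobp they were Slc37a2, Sh3bp1 and Abhd6 (r = 0.90, 0.89 and 0.88). Fcgr4 and Csf2rb shared Bfsp2 and Rnase12 among their closest genes, with r = 0.86 and 0.85 for Fcgr4 and 0.82 and 0.84 for Csf2rb, beside Sh2b2 (r = 0.84) for Fcgr4 and Iqcg (r = 0.85) for Csf2rb. Clec4a3 was closest to Myo7a, Pxdc1 and Lta (r = 0.86, 0.85 and 0.83), and Fcgr2b to Zfp407, Bloc1s2 and Tpst1 (r = 0.85, 0.84 and 0.83). Fcgr1 (Olfr301, Olfr490 and Dnmt3l) and Fcer1g (Rbp7, Mapk4 and Trh) had no neighbour above r = 0.74.

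The partners of these genes were then read from lists of related genes. Of 12 other Fc receptors measured, 1 was called higher at 24 h in parental cells, Trim21, a receptor for antibody inside cells (0.48 ± 0.14, adjusted p = 0.0424, limma), and 0 were called in the resistant lines (1 at an unadjusted p below 0.05). The Trim21 call was lost in 6 of 10 fits without 1 array. Fcmr, the receptor for immunoglobulin M and named here after its value was seen, differed by 0.49 ± 0.17 in parental and 0.95 ± 0.25 in resistant cells and was called in neither. Of 15 receptors and adaptors that work with Tyrobp or Fcer1g, such as the Trem receptors, 0 were called at 24 h in either cell state (limma; in parental cells 7 were lower and 0 higher at an unadjusted p below 0.05), and the median of the list was -0.20 at 24 h against -0.04 over all genes. Hcst, which lies next to Tyrobp on chromosome 7 and encodes the related adaptor DAP10, differed by -0.08 ± 0.09 (adjusted p = 0.551, limma).

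Of 18 genes of ITAM and ITIM signalling, 2 rose at 24 h in parental cells, the phospholipase Plcg2 (0.19 ± 0.05, adjusted p = 0.0309, limma) and the Src-family kinase Fyn (0.54 ± 0.15, adjusted p = 0.0322, limma). These calls were lost in 3 and 5 of 10 fits without 1 array. At an unadjusted p below 0.05 (limma), 6 of the 18 were higher and 0 lower in parental cells. In the resistant lines 1 was higher and 0 lower. Of the 7 other oxidase genes measured, 0 were called in either cell state (limma; at an unadjusted p below 0.05, 2 were higher and 1 lower in parental cells and 1 was higher in resistant lines). Ncf1 differed by 0.54 ± 0.20 in parental cells (adjusted p = 0.0842, limma) and by 1.17 ± 0.24 in the resistant lines (adjusted p = 0.193, limma), where it went from 8.50 to 9.53 in R500, from 8.49 to 9.63 in R1000 and from 8.49 to 9.84 in R4000. Of 12 genes of beta common cytokine signalling, 0 were called (limma; 1 higher and 2 lower in parental cells and 1 lower in resistant lines without adjustment), and the list median was -0.09 in parental cells and -0.17 in the resistant lines. Of 8 lectin genes of the Clec4 cluster, 0 were called (limma; 2 lower in parental cells without adjustment), including Clec4a1, which lies next to Clec4a3 on chromosome 6, and the list median was -0.21 in parental and -0.04 in resistant cells.

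Myeloid transcription factors had a list median of -0.05 in parental cells at 24 h and -0.04 in the resistant lines. Of 14 measured, 0 were called higher and 1 lower at 24 h in parental cells, and without adjustment 1 was higher and 4 were lower. The gene called was Cebpa, a factor of granulocyte and monocyte development (-0.26 ± 0.07, adjusted p = 0.0414, limma). Its call was lost in 7 of 10 fits without 1 array. Spi1, which encodes PU.1, differed by 0.03 ± 0.08 in parental cells (adjusted p = 0.824, limma) and by 0.12 ± 0.11 in the resistant lines (adjusted p = 1.00, limma). It was high on the scale throughout, at 11.61 to 11.82 in the untreated resistant lines.

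**Figure D5:**
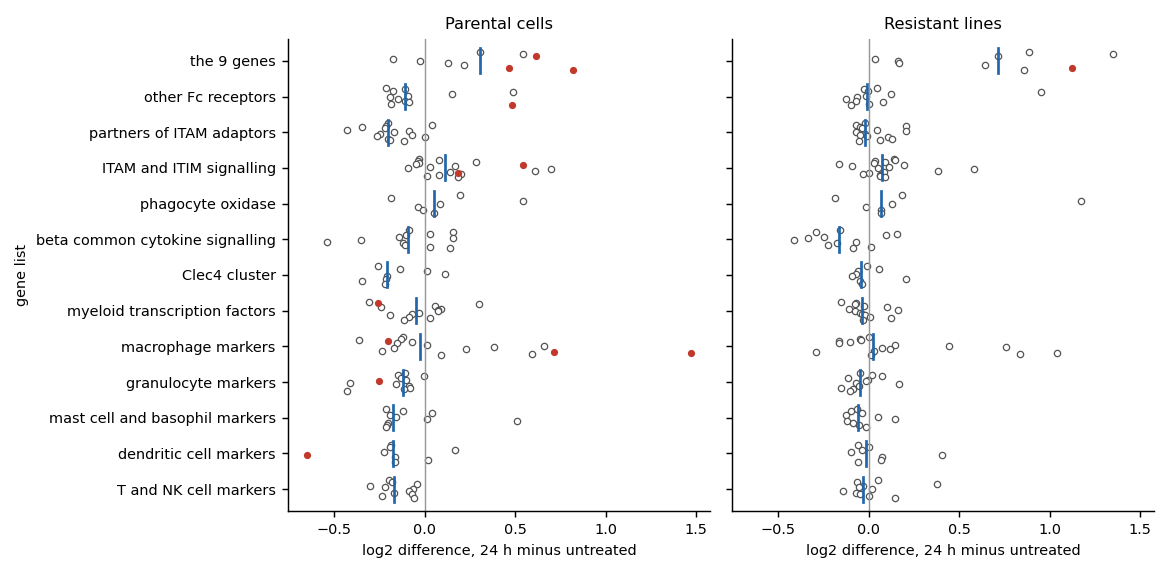
Log2 difference between 24 h of mafosfamide and no drug (horizontal axis) for the 9 genes and for the genes of 12 lists (vertical axis), in parental cells and in the resistant lines. Each circle is a gene, red circles passed an adjusted p below 0.05 (limma), and blue bars are list medians. The median of the 9 genes was 0.31 in parental and 0.72 in resistant cells, and the highest median among the 12 lists drawn was 0.11. The fibroblast list, which is not drawn, had a median of 0.46 in parental and -0.12 in resistant cells.

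Macrophage and fibroblast markers were read beside these results, since the extracts can hold RNA of other cells, and in bulk extracts fewer cells of a type and less RNA per cell cannot be told apart. Of 16 macrophage markers, 2 rose at 24 h in parental cells, Mpeg1, which encodes the pore-forming protein perforin-2 (2.77-fold, adjusted p = 0.0105, limma, called in all 10 fits without 1 array), and Mertk, a receptor for dying cells (1.64-fold, adjusted p = 0.0348, limma). C1qc, a subunit of complement component C1q, fell by 0.20 (adjusted p = 0.0484, limma). Mertk and C1qc lost their calls in 6 and 9 of 10 fits without 1 array. Csf1r, the receptor for macrophage growth factor, differed by 0.66 ± 0.25 (adjusted p = 0.0978, limma) and the integrin Itgam by 0.38 ± 0.17 (adjusted p = 0.143, limma). In the resistant lines 0 of the 16 were called (2 higher without adjustment), with differences of 1.04 ± 0.31 for Mpeg1 (adjusted p = 1.00, limma), 0.84 ± 0.48 for Mrc1 (adjusted p = 1.00, limma), 0.76 ± 0.21 for Itgam (adjusted p = 0.862, limma) and 0.44 ± 0.31 for Csf1r (adjusted p = 1.00, limma). Of the 16, 8 were above 0 h in parental cells and 10 were higher with drug in the resistant lines, with list medians of -0.03 and 0.02. The mean of the 16 markers was 6.68 to 7.04 at 0 h and 6.83 to 7.23 at 24 h in parental cells, and 6.78 to 6.94 and 6.95 to 7.11 in the 3 resistant lines without and with drug. Of 12 granulocyte markers, 0 rose, also without adjustment, and 1 fell, Ltf (-0.25 ± 0.07, adjusted p = 0.043, limma). Without adjustment 4 of them were lower in parental cells. Of 10 mast cell and basophil markers and 11 T and natural killer cell markers, 0 were called (limma; 1 and 0 higher and 5 and 3 lower without adjustment), and of 8 dendritic cell markers 0 rose and 1 fell. The part of such cells in the differences of the 9 genes was not tested.

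Of 19 fibroblast markers, 8 rose at 24 h in parental cells, among them Tagln (2.70-fold, adjusted p = 0.00795, limma) and Lox (3.72-fold, adjusted p = 0.0163, limma). Their mean was 8.13 to 8.59 at 0 h and 8.32 to 9.75 at 24 h in parental cells. In the 3 resistant lines it was 8.30 to 8.47 without drug and 7.97 to 8.29 with drug. Within parental times, arrays with more fibroblast signal had less of Csf2rb (r = -0.68), Tyrobp (r = -0.56), Fcgr4 (r = -0.56), Fcgr2b (r = -0.55), Cybb (r = -0.47) and Fcgr3 (r = -0.33) over 23 arrays, while r was -0.04 for Fcer1g, 0.06 for Fcgr1 and 0.07 for Clec4a3. With the fibroblast mean as a covariate the median difference of the 9 genes at 24 h in parental cells was 0.59 in place of 0.31. Csf2rb was then called beside Fcgr4, Tyrobp and Cybb, where 522 of all genes were called. The part of fibroblast RNA in the differences of the 9 genes was not tested.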

How the data were processed

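RNA of 30 samples was hybridised to 30 Affymetrix arrays. The authors summarised the scans with justRMA of the affy package, per their methods, a procedure that subtracts background, gives every array the same distribution of intensities and reports each probe set as log2 expression. Changes in total RNA per cell are therefore not seen, and differences at low signal are compressed. The deposited log2 values were used as they stand. RMA, affy and mm9 are also named in the processing notes of the submitters. Of 34760 probe sets, 21640 carried 1 gene symbol in the platform annotation, and a gene with several was represented by the one with the highest mean, which left 19937 genes.

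Groups came from the sample labels. Parental times were fitted together over 23 arrays against 0 h, untreated resistant lines against 0 h over 9 arrays, and the response of the resistant lines over 16 arrays, with line as a factor, with limma 3.58.1 in R 4.3.3 and Benjamini-Hochberg adjustment over all 19937 genes at 0.05. On simulated data the fits returned the planted differences in the median. The simulated arrays were independent, unlike those here that share a description number, so this does not check the SEs or calls. A gene was called where it passed that threshold. The genes, lists, fits and alternatives were chosen with earlier results of these data known. List genes named are those called, at most 4 in each direction, and Spi1, Cebpa, Csf1r and Itgam are always given; 1 further gene of that rule is not reported here. Arrays have no read depth, so the number of arrays limits the precision. The p-values measure the spread between arrays, and whether each array is a separate culture is not known.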

Additional observations from a re-analysis of the deposited data

Results flagged for a closer look

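Among 45 checks of the 9 genes in the parental times (Dixon's ratio, which flags about 1 group in 20 by chance), 2 arrays stood apart. Fcgr4 on the third 24 h array was 6.80, where the next array was 6.26. Fcgr2b on the first 12 h array was 12.48, where the next was 12.67. That array is numbered 2 in its description, and Fcgr2b was lowest on the array numbered 2 at 6 h and 48 h as well.

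Fcer1g was picked out because each of the 5 parental 24 h arrays was below the 0 h mean while none of the 3 resistant lines was lower with drug. The lines differed by only 0.00 to 0.09, within the SE of 0.10, and the parental array numbered 4 was higher at 24 h than its own 0 h array, by 0.11. The responses differed by 0.21, and this difference was not tested because the gene was chosen from these contrasts.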

How the results depend on the processing

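The median difference of the 9 genes kept within its spread under every alternative at 6, 12 and 48 h and in the 3 resistant comparisons. At 24 h in parental cells it was 0.31 and moved to 0.45 with array weights, to 0.59 with the fibroblast mean as a covariate and to 0.52 with that covariate and a replicate block on the description number, an alternative added after the data were seen. Leaving out 1 array gave 0.26 to 0.41 there and 0.72 to 0.73 in treated resistant lines, where it took the whole line out of the difference. Of the differences of single genes, 1096 stayed within the spread and 11 moved, 10 of them with the fibroblast covariate.

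Description numbers paired most parental arrays: 41 of 43 pairs of one number correlated above 0.1 (median 0.40) and 21 of 23 arrays were closest to their own number, against 29 of 43 pairs for the number in the titles. With a replicate block on the description number the median at 24 h stayed at 0.31, and 5 of the 9 genes were called, where 4711 of all 19937 genes were, with Csf2rb and Clec4a3 added. The title number called the same 5, where 2726 of all genes were called. List counts at 24 h in parental cells grew with the description block as well, in either direction: to 5 partners of ITAM adaptors, 3 oxidase, 2 beta common, 2 Clec4 cluster, 5 mast cell and basophil and 3 T and natural killer cell genes from 0 each, to 4 other Fc receptors from 1, to 6 ITAM and ITIM signalling genes from 2, to 8 macrophage markers from 3, to 3 myeloid transcription factors from 1 and to 2 granulocyte markers from 1. With the description block Tyrobp was called at 12 h, where 708 of all genes were, and at 48 h Tyrobp joined Fcgr4, where 654 were. With array weights 5 of the 9 were called in the treated resistant lines, and with other samples in the fit 3 (Clec4a3, Csf2rb and Fcgr4). A fit of only the parental 0 h and 24 h arrays left 1 of the 9, Tyrobp, called at 24 h, beside 122 of all genes.

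Counts of called genes depended more on the setting. At 6, 12, 24 and 48 h they were 4, 102, 1351 and 50. With the description block they were 62, 708, 4711 and 654, and with the title block 11, 115, 2726 and 197. With array weights they were 14, 279, 999 and 72, and with the fibroblast covariate 10, 195, 522 and 149. Both block and covariate gave 111, 1679, 2589 and 1653. With only the arrays of 0 h and of the time compared in the fit, they were 0, 18, 122 and 5. Median centring gave 0, 92, 1269 and 28. For the untreated resistant lines, their response and the difference in response they were 15, 6 and 0, with array weights 100, 161 and 14, and with other samples in the fit 206, 20 and 9. Median centring left 5 for the untreated lines. Leaving out 1 array gave 0 to 21, 43 to 179, 524 to 2678, 17 to 219, 0 to 24, 2 to 5 and 0 to 128 in the same order. The lowest count at 24 h came without the third 0 h array and the highest without the fourth. The cause was not tested.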

Other observations

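The split of Fcgr3 by the number in the array description was also present in the genes whose pattern was most like it, named after their values were seen. They were chosen by their r with Fcgr3 over the same arrays, so a like split largely follows from that choice. Mrc1 lay between 7.34 and 8.24 on the parental arrays numbered 1 and 2 and between 8.29 and 9.50 on those numbered 3 to 5 (n = 8 and 15). Cd244a lay between 7.60 and 8.50 and between 8.81 and 9.97, and Gmfg, which encodes an actin regulator of blood cells, between 12.43 and 12.58 and between 12.72 and 12.91. For these 3 genes and Fcgr3 the sets did not overlap at any time. In the untreated resistant lines Mrc1 was 8.93 in R100 and 8.83 in R1000 against 8.01 in R500 and 7.91 in R4000, the same order of lines as for Fcgr3. Treated arrays were at 9.69 in R1000, 8.93 in R500 and 8.65 in R4000.

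Cr2, the complement receptor of mature B cells, rose by 0.74 ± 0.19 at 24 h in parental cells (adjusted p = 0.0227, limma) and kept its call in all 10 fits without 1 array. Ebf1, a factor of early B-cell development, fell by 0.37 ± 0.07 at 48 h (adjusted p = 0.0211, limma). Cox6a2, listed with markers of dendritic cells, fell by 0.65 ± 0.17 at 24 h in parental cells (adjusted p = 0.0264, limma). The last 2 calls were lost in 6 and 3 of 10 such fits.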
